A study of Mus musculus with 8 samples.

Results

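The Ezh2 KO was set directly against the Ezh1 KO in naive CD4+ T cells, at H3K27me3 promoter windows and in RNA, without passing through the WT library. The comparison used 4 of the 8 libraries of the study, and it kept each window or gene whose value was at least 1 in the higher of the 2 mutant libraries. That left 17982 of 18603 promoter windows and 5155 of 22410 genes. Lymph nodes of 129SV/B6 mice were the source of the purified CD4 T cells, and the age of the mice is not given in the sources used here. The 2 mutants are Ezh1-/-, for which no cre is named, and Ezh2 fl/fl CD4-cre, labelled Ezh2-/- on the samples, in which cre recombinase under Cd4 regulatory sequence removes a floxed stretch of Ezh2 in developing T cells. WT cells and cells with both changes (double KO, also CD4-cre) are given beside members for reference. Each genotype has 1 H3K27me3 ChIP-seq and 1 RNA-seq library, so no value has an SD and no difference has a test. "Higher" and "lower" describe the Ezh2 KO library against the Ezh1 KO library throughout, and 4 values in a row stand for WT, the Ezh1 KO, the Ezh2 KO and then the double KO.

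Ezh1 and Ezh2 are alternative catalytic subunits of PRC2, the Polycomb complex that methylates lysine 27 of histone H3. The trimethylated form, H3K27me3, lies over promoters of silent developmental regulators and of genes of other lineages, and PRC1 can bind it. Ezh2 is the subunit typical of dividing cells, while Ezh1 is also found in resting cells, such as naive T cells.

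The H3K27me3 value of a promoter is the summed coverage per M reads of a 6 kb window around the gene start. The RNA value is the mean over a gene's exons of the highest coverage per M reads, which is not divided by length, so levels are compared between libraries and not between genes. Depth in M reads was 87.1 (Ezh1 KO) and 78.2 (Ezh2 KO) for ChIP, and 70.4 and 40.7 for RNA. The shallower RNA library was the one with the higher values at most genes, and the part of depth in this was not tested. The naive CD4 T cell markers Cd3e, Cd4, Ccr7, Lef1, Tcf7 and Il7r were each at 1 or more in both mutants, for instance 12.5 (Ezh1 KO) and 11.99 (Ezh2 KO) for Tcf7. Cd8a and Cd8b1 summed to 1.01 and 1.21.

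Promoters whose windows differ in distinct ways are shown as the 200 bases before the annotated start (mm9), on the strand of the gene, with CpG dinucleotides in capitals. Cd4 and Coil had the largest differences upward and Hes5 the largest downward. The stretch of Cd4 is chr6:124838240-124838439, minus strand, that of Coil chr11:88831366-88831565, plus strand, and that of Hes5 chr4:154334679-154334878, plus strand.
Cd4: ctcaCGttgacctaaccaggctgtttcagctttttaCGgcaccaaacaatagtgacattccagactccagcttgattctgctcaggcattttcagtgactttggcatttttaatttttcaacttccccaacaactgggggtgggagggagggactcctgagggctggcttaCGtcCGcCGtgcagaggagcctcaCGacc
Coil: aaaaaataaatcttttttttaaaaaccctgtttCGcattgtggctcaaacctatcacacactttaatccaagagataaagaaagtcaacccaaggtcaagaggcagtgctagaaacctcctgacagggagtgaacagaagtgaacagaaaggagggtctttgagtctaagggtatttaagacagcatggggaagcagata
Hes5: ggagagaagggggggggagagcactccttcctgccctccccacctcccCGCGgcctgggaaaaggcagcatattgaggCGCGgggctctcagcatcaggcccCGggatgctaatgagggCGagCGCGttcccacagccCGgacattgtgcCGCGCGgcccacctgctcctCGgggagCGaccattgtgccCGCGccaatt
The Hes5 stretch holds 16 CpG sites, that of Cd4 holds 6, and the stretch before Coil holds 1. PRC2 is known to favour CpG-rich promoters.

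The enzyme genes come first because they check the labels. RNA of Ezh1 was 1.05, 0.196, 1.12 and 0.194, so both libraries labelled Ezh1-/- were low and did not overlap with the other two. The Ezh2 KO stood 5.72-fold above the Ezh1 KO. Ezh2 RNA was 0.925, 0.913, 1.08 and 1.17, a log2 ratio of 0.22, and was not low in the libraries labelled Ezh2-/-. The labels do not say which exons were floxed, and a mean over all exons does not check the loss of a few. The H3K27me3 windows of both enzyme genes differed by less than 2-fold, with log2 ratios of -0.38 at Ezh1 and 0.03 at Ezh2. Of the PRC2 subunit list, 9 of 10 genes tested had higher RNA in the Ezh2 KO, where 72% of all genes were higher, with a list median of 0.18 against 0.10 over all genes. Ezh1 itself, whose direction its deletion fixes, was the one member past 2-fold, and 2 of the 10 passed the minimum through the Ezh2 KO alone and 1 through the Ezh1 KO alone. Relative to genes of like level, 7 of 10 were higher.

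Single windows rarely differed by 2-fold. Of the 17982 windows, 8 were at least 2-fold higher in the Ezh2 KO (0.0445%) and 10 at least 2-fold lower (0.0556%). The median log2 ratio over all windows was -0.10, with 5th and 95th percentiles of -0.62 and 0.44. The split depends on how the libraries are scaled. Both TMM and median-of-ratios scaling gave 12 higher and 6 lower. The split was 4 and 100 with background windows set equal, and 265 and 0 with marked windows set equal. A fold threshold of 2 cut through a continuous range: Slfn8 at 1.02 and Slc2a6 at -1.02 lay just inside, and Ptchd2, at -0.996, just outside.

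Differences followed the amount of the mark. A promoter counts as marked here when the mean of both mutants reaches 4 times the background, taken as the median over the 6161 windows of genes in the top tertile of mean RNA. There were 2353 marked promoters, 12.6% of all windows. Their median value was 50.9, 63.5, 46.8 and 56.2. The Ezh1 KO library was thus the highest and the Ezh2 KO library the lowest, with WT and the double KO between them. Of the marked promoters, 2305 (98.0%) were lower in the Ezh2 KO and 48 higher. The median log2 ratio was -0.43, with 5th and 95th percentiles of -0.70 and -0.10. The Ezh1 KO was the highest of all 4 libraries at 2059 marked promoters, and the Ezh2 KO was the lowest at 1717.

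Background windows went the other way. Their median was 10.04, 9.70, 11.04 and 10.34, and 66.8% of the 5992 background windows tested were higher in the Ezh2 KO. Enrichment, which divides the marked median by the background median of one library, was 5.07, 6.54, 4.24 and 5.43. The enrichment of the Ezh2 KO was 0.648 times that of the Ezh1 KO. Without a spike-in, less mark at marked promoters, more signal elsewhere and a less efficient precipitation in 1 library cannot be told apart.

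**Figure D1:**
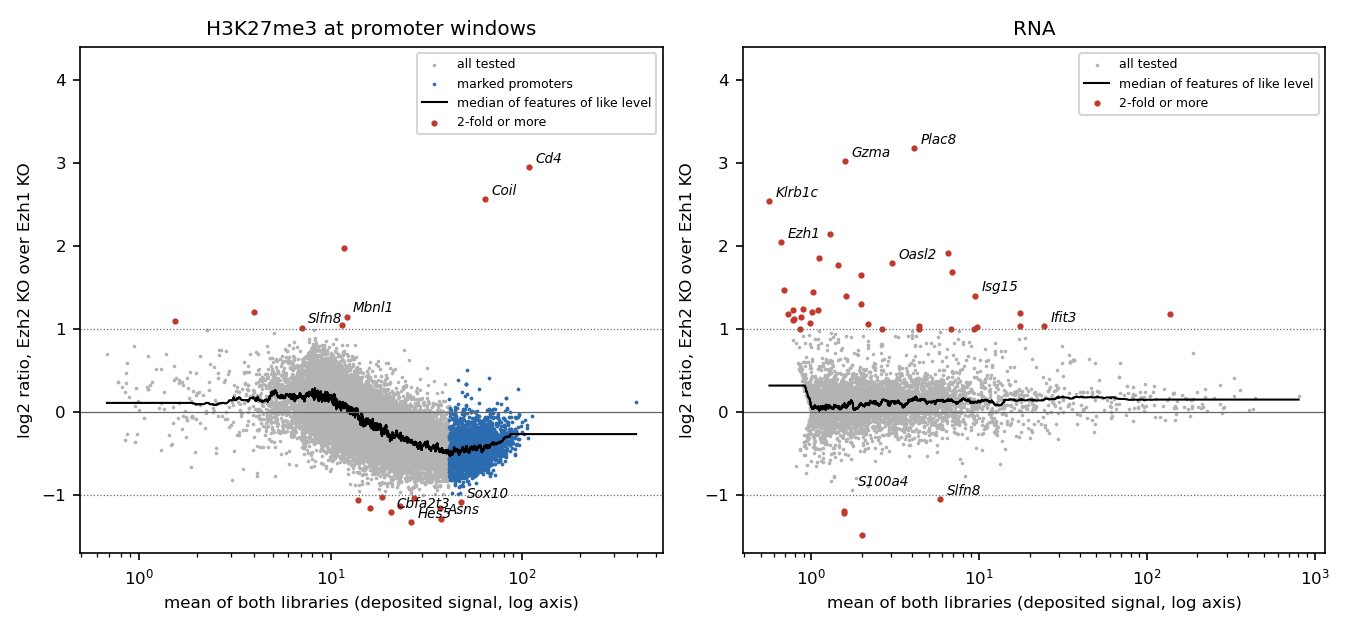
Each point is a promoter window (left, H3K27me3) or a gene (right, RNA), with the mean of the Ezh1 KO and Ezh2 KO libraries on a log x axis and the log2 ratio of Ezh2 KO over Ezh1 KO on the y axis. Red points are 2-fold or more (dotted lines), blue points are marked promoters, and the black line is the median ratio of the features nearest in mean value. The ChIP line falls from above 0 at low windows to below 0 at marked promoters, while the RNA line stays slightly above 0 at most levels.

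Promoters were also grouped by other properties. By RNA of the gene, the median H3K27me3 log2 ratio was -0.32 in the lowest tertile, -0.13 in the middle tertile and 0.12 in the highest, but -0.02, -0.02 and 0.05 relative to windows of like level. By mean H3K27me3 itself it was 0.18, -0.07 and -0.40. By CpG content of the kilobase around the start, as observed over expected CpG, it was -0.15, -0.15 and -0.00, with no steady order. Among marked promoters the medians were -0.44, -0.44 and -0.40. The median over marked promoters lay between -0.49 and -0.37 on each of the 19 autosomes, so no single chromosome carried the lower values.

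**Figure D2:**
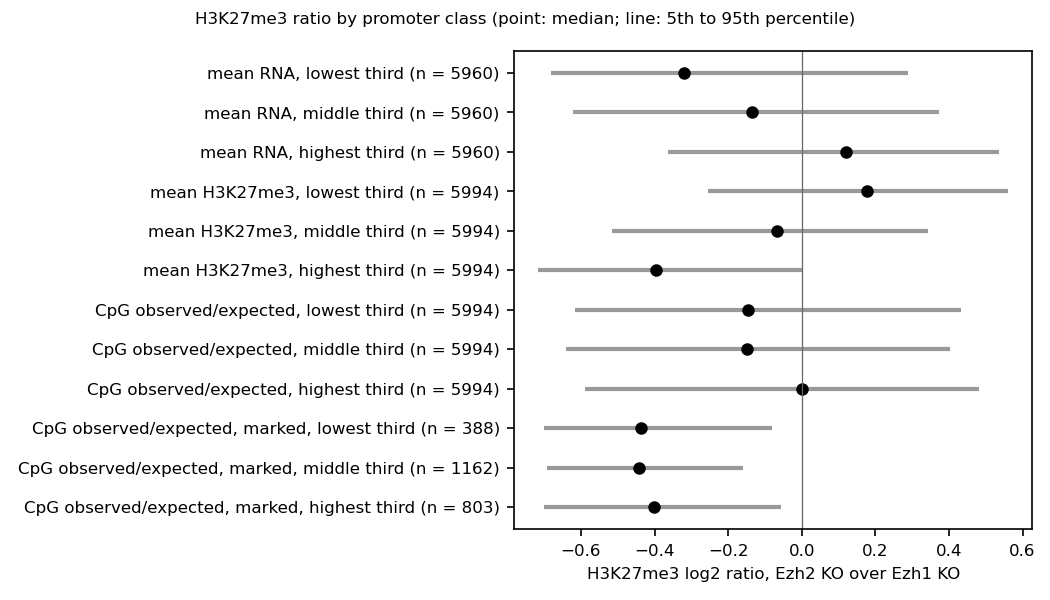
Median H3K27me3 log2 ratio (points) of Ezh2 KO over Ezh1 KO, with lines from the 5th to the 95th percentile, for tertiles of promoters by mean RNA, mean H3K27me3 and CpG content, and for marked promoters by CpG content. Medians fall from 0.18 to -0.40 with the level of H3K27me3 and rise from -0.32 to 0.12 with RNA.

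Among the 8 windows 2-fold higher, Cd4 and Coil had the highest ratios and were the only marked ones. Both reached the marked threshold through their Ezh2 KO value alone, so that label follows from the difference itself. The window of Cd4 (chr6:124835239-124841239), the coreceptor that defines these cells, read 19.9, 24.1, 193 and 212. Both libraries of CD4-cre genotypes were high and both others low, and the Ezh2 KO was 8.04-fold above the Ezh1 KO (log2 2.96 with the pseudocount of 1). The counting interval of that log2 ratio, 95% and exact, ran from 2.85 to 3.17, from 347 and 2507 read equivalents. Cd4 RNA was 16.6, 13.6, 15.7 and 16.3, so the RNA value did not fall with the high window. CD4-cre transgenes carry Cd4 regulatory sequence, and reads from such a transgene and from the native locus cannot be told apart.

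Coil, which encodes coilin, the scaffold of nuclear Cajal bodies, had the opposite layout of genotypes. Its window (chr11:88828566-88834566) read 133, 17.7, 110 and 17.5. Both Ezh1-/- libraries were low, and the Ezh2 KO was 6.20-fold above the Ezh1 KO (log2 2.57, counting interval 2.44 to 2.83). Coil lies 12.3 Mb from Ezh1 on chromosome 11, and the loss of Ezh1 and sequence linked to the mutant allele cannot be told apart. Coil RNA was 0.502, 0.415, 0.495 and 0.375, under the minimum of 1 in every library.

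The other windows in this direction held less signal. The window of Mbnl1, which encodes an RNA splicing regulator, read 9.68, 7.13, 17.1 and 14.5, with the Ezh2 KO the highest of the 4 (log2 1.15). Prdx6, an antioxidant enzyme gene, read 11.99, 7.07, 15.75 and 11.50 (log2 1.05), and there the Ezh1 KO was the one below WT and the double KO. The window of 2310001H12Rik read 5.55, 2.01, 5.95 and 2.46 (log2 1.21), again low in both Ezh1-/- libraries. That of Slfn8 read 5.18, 4.32, 9.78 and 7.09 (log2 1.02). Slfn8 belongs to a family of near-identical Schlafen genes and is uncertain, since reads placed at more than one location were not kept. The remaining 2 windows carry no symbol in the files. One of them, ENSMUSG00000074832, which the name table gives as 2410141K09Rik, read 13.8, 4.16, 19.3 and 10.7 (log2 1.97).

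The 10 windows 2-fold lower were mostly at intermediate mark, and only that of Sox10 was marked. The window of Hes5, a Notch target gene and transcriptional repressor, read 28.1, 38.0, 14.6 and 21.6 (log2 -1.33, counting interval -1.63 to -1.14). The Ezh2 KO was the lowest and the Ezh1 KO the highest of the 4 libraries. Asns, the asparagine synthetase gene, followed the same order of extremes with 41.63, 54.09, 21.68 and 45.98 (log2 -1.28). Asap3 read 46.1, 51.8, 22.7 and 44.9 (log2 -1.16), with 3 libraries close together and the Ezh2 KO below them.

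Others were low in both CD4-cre genotypes. Cbfa2t3, which encodes a haematopoietic corepressor, read 20.2, 29.0, 12.1 and 7.87 (log2 -1.20). Myadm read 16.8, 22.5, 9.520 and 8.996 (log2 -1.16), and Slc2a6, a sugar transporter gene, read 22.8, 25.3, 11.9 and 11.5 (log2 -1.02). At 5031439G07Rik the values were 27.6, 31.9, 14.1 and 15.4, and at Rgag4 they were 13.7, 19.1, 8.70 and 9.55. At these 5 windows the double KO stood near or below the Ezh2 KO, and WT and the Ezh1 KO stood above both. Gpr56, an adhesion receptor gene of cytotoxic cells, read 24.98, 36.90, 17.48 and 24.04 (log2 -1.04), with WT and the double KO between the mutants.

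Sox10, a transcription factor of neural crest and glia, read 34.9, 65.3, 30.4 and 48.2 (log2 -1.08, counting interval -1.27 to -0.93). Here the Ezh1 KO stood above the other 3 libraries, and the Ezh2 KO lay near WT. The other marked windows with the lowest ratios for their level also had the Ezh1 KO highest. At Zcchc14 and Kif1a, however, the Ezh2 KO lay further below WT than at Sox10. Sall1, a developmental zinc finger factor, read 30.5, 62.1, 30.9 and 50.9, and Tmem132e read 31.4, 57.7, 28.8 and 47.6. Zcchc14 read 39.8, 62.8, 31.6 and 53.0, and Kif1a, a neuronal kinesin gene, read 43.3, 64.2, 34.3 and 53.4. All 5 had the Ezh1 KO highest and the double KO second. Marked windows with the highest ratios for their level, after Cd4 and Coil, were Heatr7b1 (52.2, 42.4, 60.8 and 48.7), Ugt1a1 (49.8, 40.0, 52.4 and 45.0) and Nkx2-4 (63.7, 57.2, 76.5 and 69.3). In these 3 the Ezh2 KO was the highest library and the Ezh1 KO the lowest. Ugt1a1 shares exons with the other genes of its cluster, so its window stands for one start among several.

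**Figure D3:**
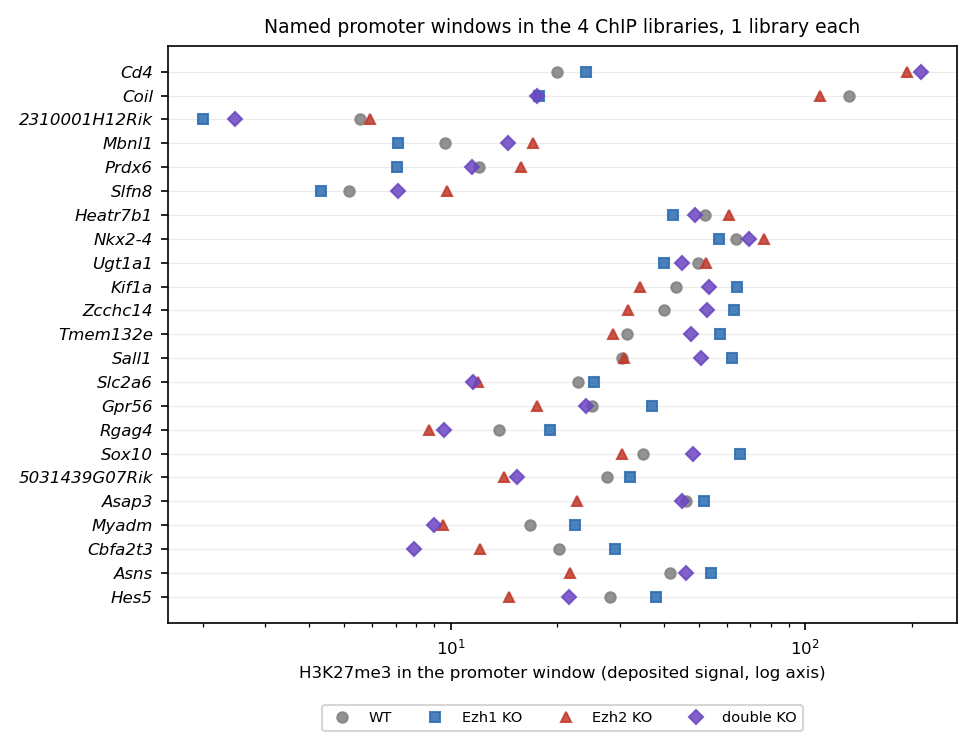
H3K27me3 in the promoter window (log x axis, summed coverage per M reads) of each named window in the 4 ChIP libraries, 1 symbol per library, ordered by the ratio of Ezh2 KO over Ezh1 KO. Cd4 is high in the Ezh2 KO and double KO, Coil is low in the Ezh1 KO and double KO, and at the lower windows the blue square of the Ezh1 KO lies to the right of the red triangle of the Ezh2 KO.

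Windows of developmental transcription factors, of Wnt, BMP and Hedgehog ligands and of the Notch pathway had median ratios below that of all windows. Of 106 windows of developmental transcription factors, 102 were marked, and 0 were higher in the Ezh2 KO, where 40.1% of all windows were higher. Among all 2353 marked promoters, 48 were higher. Their median was 54.9, 75.9, 55.2 and 70.9, and their median log2 ratio was -0.46 against -0.10 over all windows. All 106 were higher in the Ezh1 KO than in WT, whereas the Ezh2 KO was below WT at 53 of them. Over all 2353 marked promoters the Ezh1 KO was above WT at 2238 and the Ezh2 KO below WT at 1822. The 33 Wnt, BMP and Hedgehog ligand genes were lower without exception, with a median of -0.52. Their largest differences were at Wnt5a (29.8, 45.8, 24.0 and 39.3), Wnt9a (43.0, 68.7, 41.1 and 54.8), Wnt7a and Wnt3a. Of the Notch pathway genes, 19 of 21 were lower, with a median of -0.49, and Hes5 was the one past 2-fold.

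These 3 lists kept a median below 0 under each of the 6 other scalings. Relative to windows of like level their medians were small, at -0.07, -0.13 and -0.09. Hox genes, body-axis factors whose clusters are classic targets of PRC2, were lower at 28 of 30 windows with a median of -0.26, their median value being 87.1 (Ezh1 KO) and 72.6 (Ezh2 KO). Their median was 0.05 relative to windows of like level and was also above 0 relative to windows of like RNA and with marked windows set equal. Hoxb5 read 57.7, 83.3, 59.5 and 73.3, and Hoxd4 read 73.3, 87.9, 63.3 and 73.6. In both, the Ezh1 KO was the highest library.

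Genes of other blood lineages were also lower as lists, where 10776 of all 17982 windows were lower. Myeloid and dendritic cell genes were lower at 28 of 32 windows (median -0.37), with C1qc, a complement gene, at 28.5, 40.2, 21.7 and 25.2, and Cebpa, the myeloid transcription factor, at 37.3, 54.5, 30.9 and 41.9. B cell and plasma cell genes were lower at 24 of 30 (median -0.26), led by Sdc1 at 34.7, 47.6, 24.4 and 24.8 and Cd40 at 41.0, 52.2, 31.3 and 27.7. Both medians were above 0 with marked windows set equal, and relative to windows of like level they were -0.13 and -0.15. Erythroid and platelet genes were lower at 14 of 16 (median -0.14), but their median was 0.09 relative to windows of like level. Of T helper regulators, Runx3 read 13.9, 18.9, 9.26 and 13.0 and Tbx21 read 37.8, 42.6, 28.5 and 38.2. The Ezh2 KO was the lowest library at both, although 9 of the 16 Th1 genes were higher there.

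Windows of T cell receptor and proximal signalling genes went up as a list. Of 31, 30 were higher in the Ezh2 KO, where 40.1% of all windows and 66.8% of background windows were higher. The list median was 0.42, and it stayed above 0 under each of the 6 other scalings, between 0.18 and 0.84. The lowest of these, 0.18, was the median relative to windows of like RNA, with 24 of 31 above 0. Median values were 11.3, 11.5, 14.6 and 15.2, so both CD4-cre genotypes stood above the other two, as they did at 29 of the 31 windows one by one. Cd3d, a chain of the CD3 complex, read 19.27, 20.03, 31.44 and 30.6 (log2 0.62), and Fyn, a Src family kinase gene, read 15.2, 15.6, 24.1 and 25.7 (0.59). Csk, the kinase that restrains Src family kinases, read 6.52, 5.83, 9.68 and 7.08, and Grap2, an adaptor gene, read 11.03, 8.798, 14.25 and 11.92. None of the 31 was marked and none was past 2-fold, so these are differences between low values. RNA of the same genes was higher at 16 of 31, a share below the 72% over all genes, with a median of 0.02 that was below 0 under the 3 other RNA scalings. Relative to genes of like level, 5 of 31 were higher. Cd3d RNA read 29.1, 20.7, 22.9 and 22.1, with WT highest.

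Interferon-inducible GTPases, which act against intracellular microbes, were higher at 15 of 16 windows with a median of 0.30. Beside this and the next 2 counts, 40.1% of all windows and 66.8% of background windows, those of genes with high RNA, were higher. Relative to windows of like RNA, a value that 14 of these windows have, the median was 0.07, with 10 of 14 above 0. Gbp2 read 11.1, 9.50, 17.4 and 14.5, with the Ezh2 KO highest. MHC class I and antigen processing genes were higher at 17 of 21 (median 0.27). Their median was 0.05 relative to windows of like level and 0.08 relative to windows of like RNA. Naive T cell genes were higher at 21 of 34 with a median of 0.12, which fell below 0 with background windows set equal and relative to windows of like RNA.

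**Figure D4:**
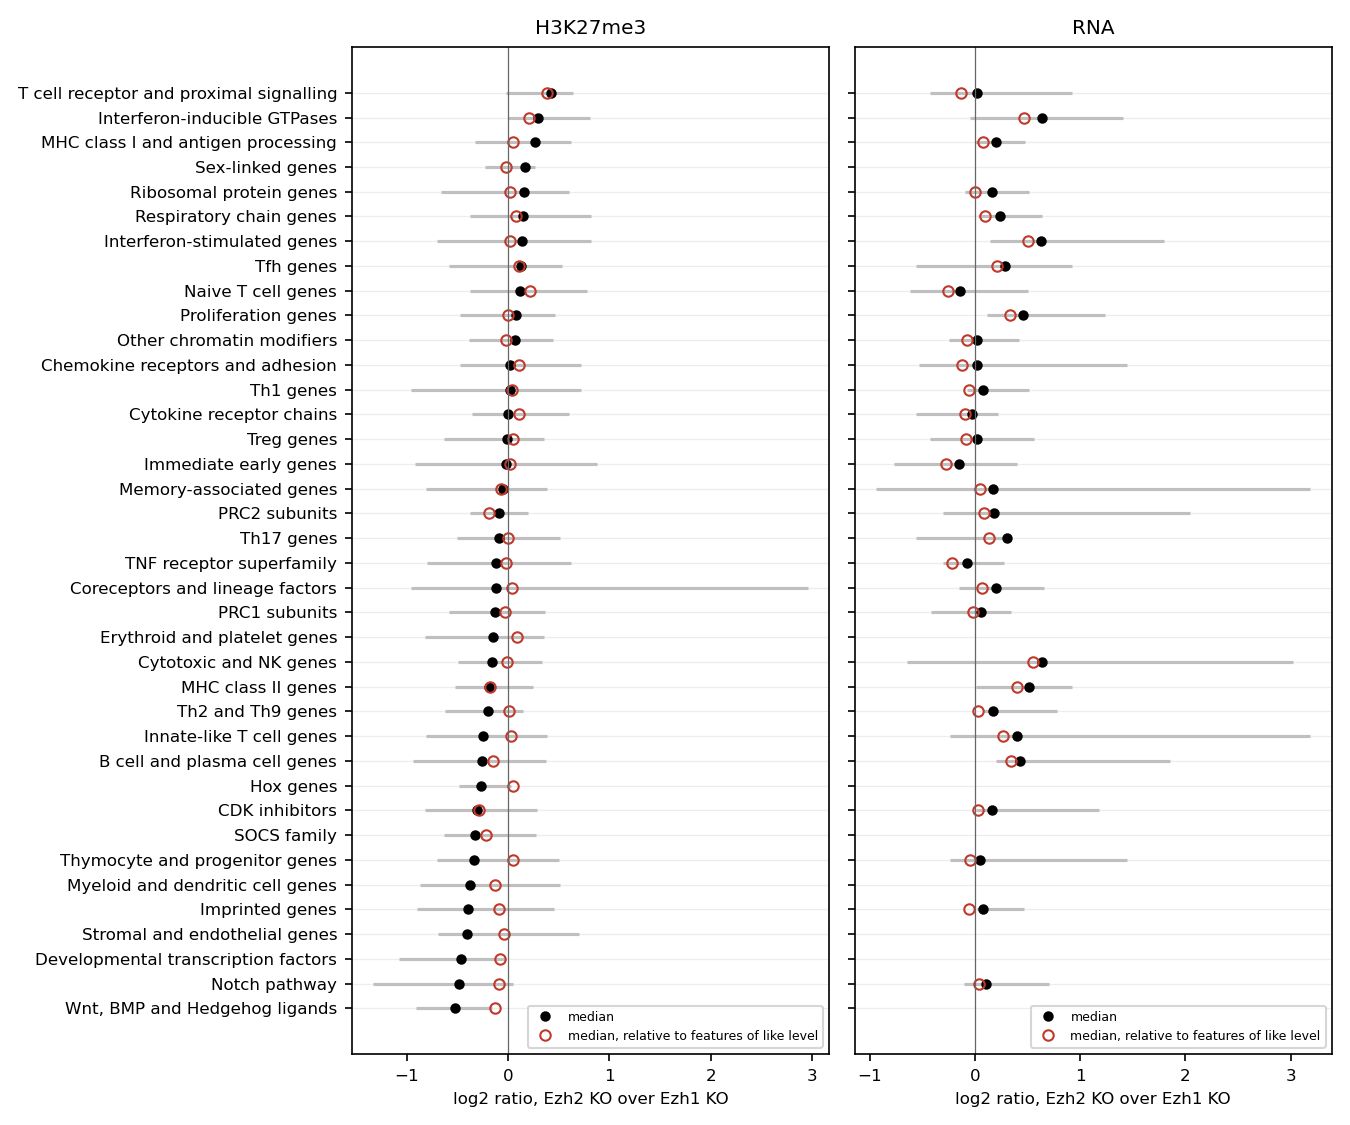
Median log2 ratio of Ezh2 KO over Ezh1 KO for each gene list with at least 3 members tested, for H3K27me3 (left) and RNA (right). Black points are medians, grey lines run from the lowest to the highest member, and open red circles are medians relative to features of like level. T cell receptor windows sit at 0.42 and Wnt, BMP and Hedgehog ligands at -0.52, while in RNA the interferon lists sit at 0.63 and 0.64.

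RNA differed mostly in one direction. Of 5155 genes, 37 were at least 2-fold higher in the Ezh2 KO (0.718%) and 4 at least 2-fold lower (0.0776%), together 0.795%, and 72% of genes were higher by any amount. The median log2 ratio was 0.10, with 5th and 95th percentiles of -0.23 and 0.49. Setting the libraries equal at the median gave 26 higher and 5 lower, and relative to genes of like level the split was 20 and 6. Of the 37 genes, 21 were under 1 in the Ezh1 KO and so were tested through the Ezh2 KO alone. Ezh2 KO was the highest of the 4 libraries for 34 of the 37. By the median instead of the mean over exons, 31 of the 37 and all 4 lower genes remained past 2-fold. Just outside the threshold lay Hist1h3a at 0.98 and S100a4 at -0.94.

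Among genes tested, the 3 with the largest differences were Plac8, Gzma and Klrb1c. Plac8, which marks some activated and innate-like lymphocytes, read 0.680, 0.731, 7.47 and 3.04, so the Ezh2 KO was 10.2-fold above the Ezh1 KO (log2 3.19) and the double KO lay between. Gzma, the granzyme A gene, read 0.226, 0.270, 2.90 and 1.13 (log2 3.02). Klrb1c, which encodes the NK1.1 receptor and belongs to a family of close copies, so is uncertain, read 0.110, 0.0940, 1.03 and 0.0498 (log2 2.55). It was high in the Ezh2 KO alone.

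Other defining NK genes were not higher. Ncr1 read 0.0657, 0.0853, 0.0737 and 0.0638, and Klrd1 read 0.854, 0.459, 0.398 and 0.516. The 4 NK markers summed to 1.26, 0.908, 4.41 and 1.76, with 2 of 4 higher in the Ezh2 KO. In bulk samples, fewer cells of a type and less RNA per cell cannot be told apart, and the part of other cells in these results was not tested. Of 8 innate-like T cell genes tested, 2 of them through the Ezh2 KO alone, 5 were higher (median 0.40), a share below the 72% over all genes. Of 7 cytotoxic and NK genes, 6 were higher (median 0.64), where 72% of all genes were higher. Of these 7, 3 passed the minimum through the Ezh2 KO alone and 1 through the Ezh1 KO alone, so their direction was fixed. Of 16 memory-associated genes, 3 of them tested through the Ezh2 KO alone, 9 were higher, again a share below 72%. Against Plac8 stood S100a4, a calcium-binding protein gene of effector and memory cells, at 3.71, 2.33, 1.16 and 2.28, and S100a6 at 2.83, 1.57, 1.02 and 1.79. Both were lowest in the Ezh2 KO.

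Igj, the immunoglobulin joining chain gene, read 0.260, 0.423, 1.79 and 0.419 (log2 1.85), while Sdc1, the other plasma cell marker, read 0.0432, 0.0315, 0.0351 and 0.0319. The B cell marker Cd79a read 0.359, 0.499, 0.755 and 1.12, Cd79b read 0.325, 0.451, 0.786 and 1.03, and Ms4a1 read 0.189, 0.252, 0.321 and 0.926. Each was higher in the Ezh2 KO than in the Ezh1 KO and higher still in the double KO, and under 1 in both single mutants. The MHC class II genes tested were higher at 6 of 6 with a median of 0.51, where 72% of all genes were higher with a median of 0.10. H2-Aa read 0.771, 1.03, 1.64 and 2.69 and Cd74, the invariant chain gene, read 1.51, 1.87, 2.77 and 5.30. In both the double KO was the highest library.

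Myeloid markers summed to 0.825 and 0.933, with none of the 7 at 1 or more. Ccr9, a gut homing receptor also found on thymocytes, read 0.632, 0.500, 1.54 and 0.874 (log2 1.45). Art2b, an ecto-enzyme gene of T cells with a close copy and so uncertain, read 2.45, 3.19, 10.5 and 5.23 (log2 1.69). Both were highest in the Ezh2 KO with the double KO second.

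Interferon-stimulated genes were higher as a whole list. Of the 51 genes listed 48 have RNA values and 44 were tested. All 44 were higher in the Ezh2 KO, where 72% of all genes were higher. Of the 44, 6 passed the minimum through the Ezh2 KO alone, so their direction was fixed. The median log2 ratio was 0.63 against 0.10 over all genes, and 0.50 relative to genes of like level. Median values were 3.17, 3.70, 5.44 and 5.73. At each of the 44 genes both libraries of CD4-cre genotypes were above both others, and the Ezh1 KO was above WT at 35. The interferon-inducible GTPases behaved alike in RNA, with 14 of 15 higher and a median of 0.64. Of these 15, 1 passed the minimum through the Ezh2 KO alone.

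Oasl2, an antiviral oligoadenylate synthetase-like gene, read 0.677, 1.30, 4.77 and 3.00 (log2 1.796), and Ifi44 read 0.314, 0.598, 2.29 and 3.14 (log2 1.77). Isg15, a ubiquitin-like modifier, read 3.94, 5.14, 13.8 and 10.9 (log2 1.41). Ifit3, an antiviral RNA-response gene, read 11.5, 15.9, 32.9 and 32.4 (log2 1.04). In these 4 genes WT was the lowest library, and both CD4-cre genotypes were more than 2-fold above the Ezh1 KO.

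Ifitm3, which blocks viral entry and is not in the list used here, read 0.350, 0.416, 2.18 and 1.57 (log2 2.15). Ube2l6, the enzyme that passes Isg15 to its targets, read 0.346, 0.493, 1.30 and 1.03 (log2 1.24). Oas1a, one of several near-identical synthetase genes and so uncertain, read 0.698, 0.900, 3.05 and 2.29 (log2 1.65). Irf7, a regulator of the response, was higher by less and read 3.85, 5.21, 9.69 and 9.82 (log2 0.88). The lowest member of the list was Irf9, at log2 0.14. Of the 37 genes 2-fold higher, 8 are in one of the 2 interferon lists.

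Promoters of these genes were searched on both strands in the 250 bases before the window centre. The pattern was a pair of GAAA copies with any 2 bases between them, the core of the interferon-stimulated response element. It was present in 2.89% of 18080 promoters and in 3.50% of the 4803 promoters of genes over the RNA minimum. At 1.5-fold, 25 of 162 genes with higher RNA held it (15.4%) and 2 of 11 genes with lower RNA (18.2%). Of the 33 genes 2-fold higher with a promoter in the annotation, 9 held it (27.3%), as did 13 of 42 genes of the interferon-stimulated list (31.0%). A match is a run of letters and not a measured site. The stretches of Isg15 (mm9, chr4:155574969-155575020, minus strand), Ifit3 (chr19:34657848-34657921, plus strand) and Oas1a (chr5:121357537-121357569, minus strand) are shown because they hold overlapping or repeated matches, which are in capitals.
Isg15: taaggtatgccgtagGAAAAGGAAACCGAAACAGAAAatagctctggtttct
Ifit3: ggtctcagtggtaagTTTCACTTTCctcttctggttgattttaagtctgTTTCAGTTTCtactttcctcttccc
Oas1a: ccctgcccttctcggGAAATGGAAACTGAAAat
Isg15 has 3 matches that overlap, Oas1a has 2 that overlap, and Ifit3 has 2 apart, both on the opposite strand. No match lay in the 250 bases before the start of Oasl2, Ifi44 or Ube2l6.

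**Figure D5:**
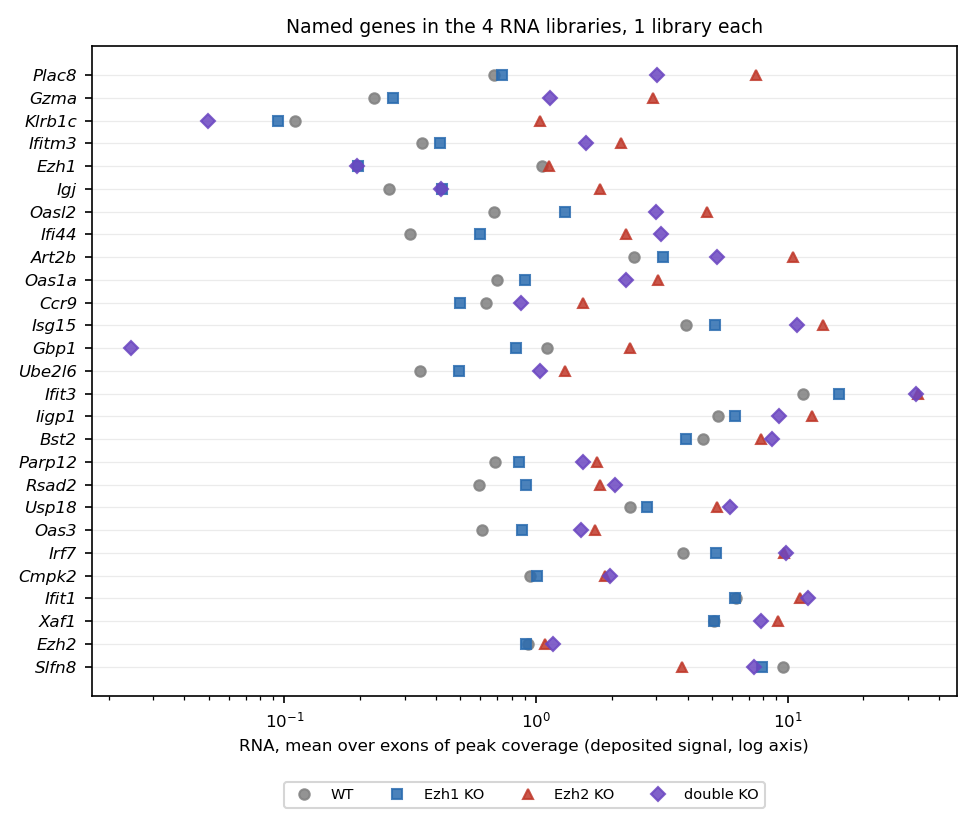
RNA (log x axis, highest coverage per M reads, averaged over exons) of the enzyme genes, the named genes and the interferon genes with a log2 ratio of at least 0.8, in the 4 RNA libraries, 1 symbol per library. Plac8, Gzma and Klrb1c lie furthest right in the Ezh2 KO, Ezh1 is low in the Ezh1 KO and double KO, and at most interferon genes both CD4-cre genotypes lie to the right of WT and the Ezh1 KO.

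Among the other genes 2-fold higher were the chaperone partners Hsph1 (1.37, 1.36, 2.97 and 2.40), Stip1 (7.56, 6.40, 13.1 and 9.86) and Chordc1 (5.79, 4.50, 9.16 and 6.14). In all 3 the Ezh2 KO was the highest library, and none of the 3 stayed 2-fold by the median over exons. Birc5, a mitotic regulator, read 0.641, 0.618, 1.59 and 1.06, and all 16 proliferation genes tested were higher, with a median of 0.46, where 72% of all genes were higher. Of these 16, 4 passed the minimum through the Ezh2 KO alone, so their direction was fixed. Lars2, a mitochondrial tRNA ligase gene, was 10.6 and 24.3 by the mean over exons but 0.194 and 0.123 by the median, and so went opposite ways. Histone genes of the Hist1h cluster, Gbp1, Slfn9 and Bcl2a1d were also past 2-fold, and all belong to families of close copies and are uncertain.

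Fewer genes were lower. Slfn8 read 9.57, 7.94, 3.80 and 7.36 (log2 -1.04), so the Ezh2 KO was the lowest library, and the other 3 genes 2-fold lower have no symbol in the files. Naive T cell genes were lower at 26 of 34 genes, with a median of -0.14 against 0.10 over all genes, but 0 passed 2-fold. Dapl1 read 17.9, 16.1, 10.4 and 4.06 and Il6ra, an interleukin 6 receptor gene, read 2.09, 2.07, 1.36 and 1.64. The CD4-cre genotypes were the lower pair in both. Immediate early genes, which respond within minutes to stimulation and to handling of cells, were lower at 13 of 17 (median -0.15). Over all genes 72% were higher, with a median of 0.10. Of the 17, 1 passed the minimum through the Ezh2 KO alone and 1 through the Ezh1 KO alone, so their direction was fixed. Zfp36l2 read 13.0, 10.4, 6.05 and 15.9, and Jun read 6.62, 9.57, 6.22 and 8.34. Neither kept the Ezh2 KO and double KO together.

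The assays were then joined by symbol, which gave 4773 genes over both minimums. The 32 genes 2-fold higher in RNA with a window did not share a direction in H3K27me3: 17 windows were lower and 15 higher, with a median log2 ratio of -0.01 against 0.14 over all joined genes, of which 30.9% were lower. Relative to windows of like level the median was 0.04. Across the 4773 genes Spearman's rho between the 2 log2 ratios was -0.08 and Pearson's r was -0.10, a description across genes that are not independent replicates. One gene was past 2-fold in both assays: Slfn8, with lower RNA and a higher window, which is uncertain for the reason given above.

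At 1.5-fold in both assays there were 16 genes, 8 of them with higher RNA and a lower window. RNA was at least 1.5-fold higher at 158 of the joined genes. Over all 17982 windows, 1207 were at least 1.5-fold lower and 288 at least 1.5-fold higher. The window of Plac8 (chr5:100998264-101004264) read 26.9, 26.5, 14.7 and 13.0, low in the 2 CD4-cre genotypes, the ones whose RNA was high. The same layout held at Chsy1, which encodes a chondroitin synthase, with 25.2, 24.2, 13.0 and 11.7, and at Ube2l6, with 29.3, 28.6, 17.9 and 15.7. Ifitm3 read 36.5, 41.0, 24.5 and 29.2, and Clic4, an intracellular chloride channel family gene, read 19.96, 27.75, 16.29 and 14.46. Oas1a read 13.5, 14.3, 9.12 and 10.1, and Ctnna1 and Cplx2 complete the 8. None of these windows is marked by the threshold used here. Windows of the interferon-stimulated list as a whole did not share this layout. Of its 46 windows tested, 31 were higher, where 40.1% of all windows were. Their median log2 ratio was 0.14, and -0.04 relative to windows of like RNA. In 6 genes both assays were higher (Trim30, Lpxn, Gbp2, Dnaja1, Tgtp2 and Bcl2a1d), and in Jun both were lower. Gzma and Isg15, by contrast, had windows that differed by less than 1.5-fold.

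At each of the 10 promoters with a 2-fold lower mark, RNA lay under the minimum in both mutants. Most windows are like this, since 4773 of the 17982 belonged to genes over the RNA minimum. Hes5, Sox10, Asns and Cbfa2t3 were under 1 in every RNA library, for instance 0.0634 and 0.0615 for Hes5 in the Ezh1 KO and Ezh2 KO. The developmental factor, Hox and Wnt lists had 0 genes over the RNA minimum. At Mbnl1 RNA was 22.5 and 25.1 while the window went from 7.13 to 17.1. Of the marked promoters 47 belonged to genes over the RNA minimum, and 34 of these had higher RNA, with a median of 0.11 against 0.10 over all genes.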

How the data were processed

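H3K27me3 ChIP-seq and RNA-seq of naive CD4+ T cells were deposited as 1 file per library. Per the labels, reads were aligned to mm9 with Bowtie 0.12.7 and kept at one location with few mismatches. Cufflinks, Cuffdiff and bcl2fastq are named in the submitters' processing notes too, with no role. Per the file headers, the authors' ChIP signal comes as an area and as a highest bin per gene start window, and their RNA signal is the mean and median over exons of peak coverage. The RNA files also hold another number per the file headers, that of exons per gene. From the values, both signals are coverage per M reads, ChIP in 25 bp bins of 6 kb windows with reads extended to 151 bp. Whether the authors subtracted input is not given in the sources used here.

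No rescaling was applied to the deposited values. Depth follows from the smallest step in a library, which is 1 read. For ChIP the libraries had 79.7 (WT), 88.2 (double KO), 87.1 (Ezh1 KO) and 78.2 (Ezh2 KO) M reads. The RNA libraries, in that order, had 36.1, 94.1, 70.4 and 40.7 M reads. A median ChIP window held 204 and 177 read equivalents in the Ezh1 KO and Ezh2 KO. Ratios are log2((Ezh2 KO + p)/(Ezh1 KO + p)) with p of 1 for ChIP and 0.1 for RNA. Fold ratios without a log were taken without p. ChIP ratios have exact Clopper-Pearson counting intervals of 95%, without p, and these hold counting error alone, because PCR copies were not marked by molecular identifiers. Relative to features of like level or like RNA means minus the median of the features nearest in mean value or mean RNA, the latter added after seeing the data. With 1 library a side no test was run. Some items are not reported here.

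Named genes were Ezh1 and Ezh2, up to 12 per direction with a symbol and the largest log2 ratio past 2-fold, genes past 2-fold in both assays, 5 marked windows per direction with the largest ratio relative to windows of like level, and from each list described the members past 2-fold or else up to 4 with the largest ratio. Other names (chaperone partners, Chsy1, Clic4, Irf7, Irf9, S100a6, further genes past 1.5-fold) were chosen after their values were seen. The members, the 38 gene lists and the rule were chosen with earlier results of these data known. Promoter sequences were read from the mm9 genome upstream of the window centre or the annotated start, whichever lay further upstream. Calculations used Python 3.11.15, pandas 2.3.3, numpy 2.4.6 and scipy 1.17.1, and the calls were tested on simulated data.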

Additional observations from a re-analysis of the deposited data

How the results depend on the processing

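No p or SD exists for 1 library a side, no replicate could be left out, and "moved" below is by over 1.5 times for counts or past the interval of the median for medians. No paired analysis was possible because each genotype has 1 library per assay and the labels carry no replicate numbers.

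The count of windows 2-fold higher and 2-fold lower was 8 and 10. Both TMM and median-of-ratios scaling gave 12 and 6. The counts were 4 and 100 with background windows set equal, 265 and 0 with marked windows set equal, 6 and 3 relative to windows of like level, and 19 and 5 relative to windows of like RNA. Pseudocounts of 0.1 and 10 gave 19 and 17, and 3 and 1. Thresholds of 1.5-fold and 4-fold gave 288 and 1207, and 2 and 0. The highest bin in place of the area gave 2 and 0 with the same pseudocount of 1, which is large beside bin values, and 51 and 68 with the pseudocount scaled to the mean bin. That scaling was chosen after the unscaled counts were seen. The RNA count of 37 higher and 4 lower became 20 and 6 relative to genes of like level, 12 and 0 with a pseudocount of 1, 73 and 19 without a minimum, 13 and 1 with a minimum of 5, 180 and 23 at 1.5-fold, and 5 and 0 at 4-fold.

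The median log2 ratio over marked promoters, -0.43, stayed below 0 in each alternative run: -0.41 marked in WT, -0.26 at 8 times and -0.40 at 2 times background, -0.33 with TMM, -0.61 with background windows set equal and -0.25 by the highest bin. With marked windows set equal it is 0 by construction. The enrichment ratio of 0.648 was 0.728 at 8 times background, 0.618 with background from the top decile of RNA and 0.777 by the highest bin. Genes past the fold in both assays went from 1 to 16 at 1.5-fold and to 2 with marked windows set equal, where the median window ratio of genes with higher RNA was 0.40. The causes of these moves were not tested. Of the values for single genes and lists, 627 counted as the same and 228 as moved. For lists the measure was the interval of the median, and a single gene counted as moved only where its 2-fold call changed. RNA depth of 40.7 M against 70.4 M reads limits what can be read from genes near the minimum.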
